A study of Homo sapiens with 6 samples.

Results

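The data describe 9 genes of polyamine metabolism in MDA-MB-231 cells, an established line of human breast cancer that is mesenchymal-like. They are SAT1 and SMOX of breakdown, ODC1, AMD1, SRM and SMS of synthesis, and the regulators OAZ1, OAZ2 and AZIN1. The genes were found by symbol in the array's annotation, older symbols included, and 17 of 22283 probe sets named 1 of them alone: 3 each for SAT1 and AZIN1, 2 each for SMOX, AMD1, OAZ1 and OAZ2, and 1 each for ODC1, SRM and SMS. Another probe set listed SAT1 together with a second gene and was not used. Cells had been electroporated with an siRNA against parathyroid hormone-related protein (siPTHrP) or against firefly luciferase (siLuc, the control), and total RNA was collected after 3 days. Each of 3 independent experiments gave 1 siLuc and 1 siPTHrP RNA, so each group held 3 arrays. All groups are of this single line and share the electroporation, and siLuc is the only reference. PTHrP is a secreted peptide that breast cancer cells use in breaking down bone, and its own transcript was not analysed here, so the knockdown was not checked. SAT1 had been picked because its siPTHrP over siLuc difference on these arrays was among those with the smallest p-values, and the other 8 genes because they act in its pathway, so the SAT1 values below are a description with no test.

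Polyamines (putrescine, spermidine and spermine) are small positively charged molecules that bind nucleic acids and are needed for growth and translation. ODC1 makes putrescine from ornithine, AMD1 supplies the aminopropyl donor, and SRM and SMS add aminopropyl groups to give spermidine and then spermine. SAT1 acetylates spermine and spermidine so that they can be oxidised or exported, and SMOX oxidises spermine directly. The antizymes OAZ1 and OAZ2 bind ODC1 and send it to the proteasome, and AZIN1, a relative of ODC1 without its activity, binds antizyme instead. Much of the control of SAT1, ODC1, AMD1 and the antizymes is known to act on translation and protein turnover, which array signals do not measure. In bulk RNA, fewer cells with a transcript and less of it per cell cannot be told apart.

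SAT1, which acetylates polyamines for breakdown, and ODC1, which starts their synthesis, are shown by the 250 bases before their outermost RefSeq start, to give the sequence context of the 2 genes the values turn on. Sequences are from RefSeq on GRCh38.p14, 5′ to 3′ on the gene's strand. The SAT1 window is chrX:23782923-23783172, plus strand, and the ODC1 window is chr2:10448328-10448577, minus strand. Capitals mark the CCAAT box, which reads ATTGG where it lies on the other strand, and TGACG, the core of the cAMP response element, each searched on both strands.
SAT1: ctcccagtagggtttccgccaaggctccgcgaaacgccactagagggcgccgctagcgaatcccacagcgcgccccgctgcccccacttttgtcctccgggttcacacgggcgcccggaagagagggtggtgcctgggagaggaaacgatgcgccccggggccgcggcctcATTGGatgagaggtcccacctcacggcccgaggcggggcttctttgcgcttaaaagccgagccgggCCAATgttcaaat
ODC1: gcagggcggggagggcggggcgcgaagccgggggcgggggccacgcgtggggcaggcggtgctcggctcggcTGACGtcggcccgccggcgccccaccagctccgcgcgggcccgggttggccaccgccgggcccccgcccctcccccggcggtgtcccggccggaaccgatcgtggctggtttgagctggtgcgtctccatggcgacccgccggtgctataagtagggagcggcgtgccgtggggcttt
The SAT1 window held 2 CCAAT boxes, 1 of them 9 to 13 bases before the start, and no TGACG. The ODC1 window held 1 TGACG, 174 to 178 bases before the start, and 4 GC boxes (GGGCGG). Of 27305 windows of this length, 1 per gene, 33.0% held CCAAT, 21.6% TGACG and 42.2% GGGCGG. Windows of 7 of the 9 genes were in the table, and SMS also held 1 TGACG. The whole cAMP response element TGACGTCA, the antioxidant response element TGACNNNGC and the TATA box TATAAA, which stood in 1.75%, 11.1% and 11.2% of all windows, matched in none of the 7. The E-box CACGTG (6.46% of windows) matched once, in SRM. A match is a description of letters, not of a bound site.

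The values are signals from Affymetrix human U133 arrays of type A, which the authors had scaled to a common trimmed mean of about 1500.5. Across probe sets the siLuc array of experiment 1 stood apart: its Spearman rank correlation with the other 5 was 0.718 to 0.727, against 0.883 to 0.960 among those. Its 18 hybridisation controls had a geometric mean signal of 273000, and the other 5 arrays gave 10800 to 41400. Values without experiment 1 are therefore given beside the values of SAT1, ODC1, SMS, SRM, AMD1, SMOX and the larger differences of other genes. The part of these differences in the results was not tested. Of 7 markers of the line 5 passed the intensity filter, among them VIM at 96463 to 154350, while SPARC and S100A4 did not. Of 7 luminal markers 4 passed (KRT8 at 2364 to 3005, KRT19, GATA3 and ESR1) and PGR, CDH1 and EPCAM did not, with a summed signal of 4913 to 8211 on siLuc and 5064 to 6241 on siPTHrP arrays. Of 5 fibroblast markers 3 passed, with a sum of 5073 to 5331 on siLuc and 3036 to 4382 on siPTHrP arrays, and of 4 blood markers 2 passed, with 2418 to 4094 and 1708 to 2041. The sums of these last 2 lists did not overlap between groups, and their part in the results was not tested. In the limma fit blocked by experiment, a Benjamini-Hochberg adjusted p under 0.05 was reached by 0 of 13329 probe sets (0.0%), while 12.1% (1618) had an unadjusted p under 0.05. The count of 0 became 33, 47 and 215 without experiments 1, 2 and 3.

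SAT1 had more signal with siPTHrP on all 3 of its probe sets and in all 3 experiments as numbered here, by a size that depended on the probe set. The numbering is in doubt, since the sample titled siLuc 3 has number 2 in its description. Statements by experiment, here and below, rest on the titles. Only where the groups did not overlap is the sign in every experiment free of the pairing. The mean log2 fold change over all 3 experiments does not depend on the pairing, but its SE and p-value do. On 203455_s_at, the probe set that had drawn attention to the gene, the siLuc signals of experiments 1, 2 and 3 were 1885, 2433 and 2127. The siPTHrP signals were 5946, 6442 and 3610. All 3 siPTHrP arrays lay above all 3 siLuc arrays, and the siPTHrP array of experiment 3 was the lowest of its group. The group means were 2148 ± 275 and 5333 ± 1510 (SD, n = 3). They differed by 1.27 on the log2 scale (SE 0.24), or 2.41-fold, with 3.14-fold, 2.64-fold and 1.69-fold in experiments 1, 2 and 3. Without experiment 1 the difference was 2.11-fold and without experiment 3 it was 2.88-fold. Leaving out the siLuc array of experiment 1 alone, with no block, gave 2.26-fold.

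The brightest SAT1 probe set, 210592_s_at, showed a smaller difference. Its siLuc arrays gave 8430, 7375 and 12162 in experiments 1, 2 and 3, and its siPTHrP arrays 10251, 10717 and 15574. The groups overlapped, since the siLuc array of experiment 3 was above the siPTHrP arrays of experiments 1 and 2, but within each experiment siPTHrP was higher. The means were 9322 ± 2520 and 12181 ± 2950 (SD, n = 3), and differed by 0.39 on the log2 scale (SE 0.16), or 1.31-fold, with 1.36-fold without experiment 1. It was 0.24 on the log2 scale with quantile normalization. On 213988_s_at the siLuc arrays gave 2801, 1976 and 3445 and the siPTHrP arrays 4129, 4216 and 3478. Its groups did not overlap, yet in experiment 3 the 2 arrays were nearly equal (1.01-fold), against 1.47-fold and 2.12-fold in experiments 1 and 2. The means were 2741 ± 736 and 3941 ± 403 (SD, n = 3), and the log2 fold change was 0.55 (SE 0.25), or 1.47-fold, with 1.46-fold without experiment 1 and a log2 fold change of 0.29 without experiment 2 and 0.82 without experiment 3.

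**Figure D1:**
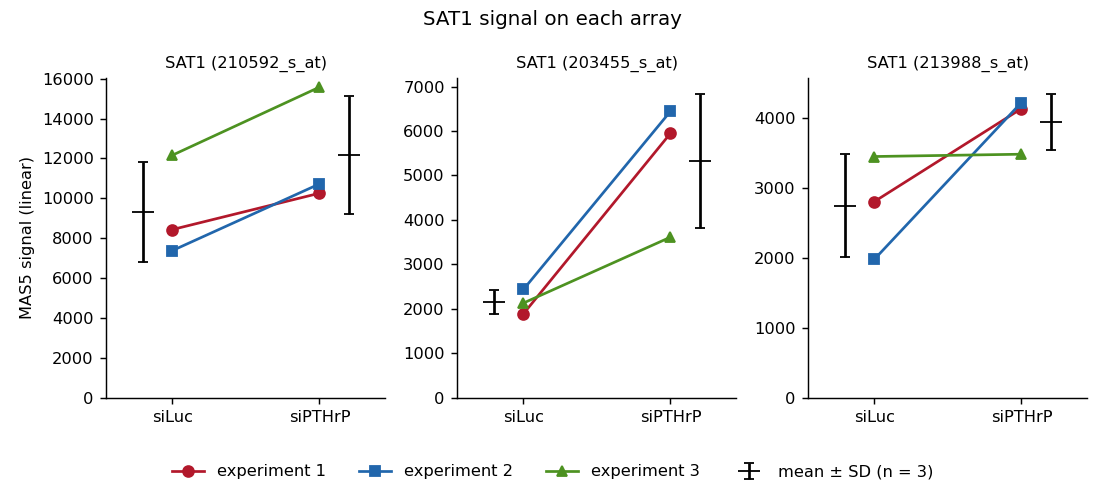
MAS5 signal (linear axis from 0) of the 3 SAT1 probe sets on the siLuc and siPTHrP arrays; lines join the arrays of 1 experiment, and black bars give the group mean ± SD (n = 3). Every line runs upward except that of experiment 3 on 213988_s_at, which is nearly flat (3445 and 3478).

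The 3 probe sets can be set against each other within an array, where the array's scaling cancels. The log2 difference of 203455_s_at minus 210592_s_at averaged -2.08 on the siLuc arrays and -1.21 on the siPTHrP arrays. Within experiments 1, 2 and 3 it was higher with siPTHrP by 1.37, 0.86 and 0.40. Hence the signals of these 2 probe sets changed by unequal amounts in each experiment, least in experiment 3. Over the 6 arrays their log2 signals had a Pearson r of 0.29, and 213988_s_at had r of 0.71 with the first and 0.65 with the second. These correlations are over 6 arrays that share the siRNA groups, and are a description.

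ODC1, the enzyme that starts polyamine synthesis, also had more signal with siPTHrP in each experiment. Its siLuc arrays gave 9498, 13249 and 19234 in experiments 1, 2 and 3, and its siPTHrP arrays 20898, 19012 and 21869. The siPTHrP arrays lay close together, whereas the highest siLuc array was 2.03 times the lowest, and the groups overlapped by 1 pair of arrays. The means were 13994 ± 4910 and 20593 ± 1450 (SD, n = 3). The log2 fold change was 0.61 (SE 0.20, 95% interval 0.16 to 1.07), or 1.53-fold, and did not pass over all probe sets (limma adjusted p = 0.360). By experiment it was 2.20-fold, 1.43-fold and 1.14-fold, and it was 1.28-fold without experiment 1. Without experiment 3, which had the smallest difference, it was 1.78-fold (SE 0.24) and passed (limma adjusted p = 0.0414). That fit held only 2 experiments, and 215 probe sets passed in it against 0 with all 3. Nothing is therefore read from this call. Within experiments, the change of SAT1 on 203455_s_at exceeded that of ODC1 by 0.51, 0.88 and 0.57 on the log2 scale, while that of SAT1 on 210592_s_at minus that of ODC1 was -0.85, 0.018 and 0.17.

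The later enzymes of synthesis showed small differences. SMS, spermine synthase, was the only 1 of the other 8 genes' tested probe sets with lower signal in all 3 experiments: siLuc arrays gave 6298, 6835 and 3822 and siPTHrP arrays 5282, 5348 and 3472. Both arrays of experiment 3 were low, so the groups overlapped. The log2 fold change was -0.25 (SE 0.18, 95% interval -0.66 to 0.16), or 0.842-fold (limma adjusted p = 0.559), and 0.844-fold without experiment 1. SRM, spermidine synthase, had 4269, 4270 and 5962 on siLuc arrays and 4406, 4276 and 6535 on siPTHrP arrays. Here experiment 3 was high in both groups, and the difference within experiments was between 1.00-fold and 1.10-fold. The SRM log2 fold change was 0.060 (SE 0.18, 95% interval -0.35 to 0.47) and 0.067 without experiment 1, and it turned to -0.052 with quantile normalization.

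AMD1, which makes decarboxylated S-adenosylmethionine, differed in sign between experiments on both probe sets. On 201196_s_at, the brighter, siLuc arrays gave 1812, 2184 and 1722 and siPTHrP arrays 2566, 1761 and 1644. The siPTHrP array of experiment 1 was the highest of the 6 and that of experiment 3 the lowest. The log2 fold change was 0.041 (SE 0.28, 95% interval -0.58 to 0.66), with 1.41-fold in experiment 1 and 0.808-fold in experiment 2. On 201197_at the folds were 1.60, 0.961 and 0.685 in experiments 1, 2 and 3, with a log2 fold change of 0.025 (SE 0.36). Without experiment 1 the 2 probe sets stood at -0.19 and -0.30. The 2 agreed across arrays, with a Pearson r of 0.81 over 6 arrays.

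The antizyme genes and AZIN1 had log2 fold changes near 0 on 5 of their 6 tested probe sets. OAZ1 had the highest percentile of signal among the 9 genes, with 29368, 36430 and 28656 on siLuc arrays and 30002, 29291 and 33826 on siPTHrP arrays of 200077_s_at. Neither group was higher throughout, and the log2 fold change was -0.015 (SE 0.17, 95% interval -0.40 to 0.37). Its other probe set, 215952_s_at, gave 0.043 (SE 0.16, 95% interval -0.33 to 0.41). These 2 turned to 0.066 with median centring and to -0.13 with quantile normalization, respectively. Set against OAZ1 on 200077_s_at, ODC1 changed by 1.11, 0.84 and -0.054 more on the log2 scale in experiments 1, 2 and 3.

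OAZ2 differed between its probe sets. On 201364_s_at siLuc arrays gave 4808, 4774 and 3309 and siPTHrP arrays 5983, 4406 and 5799. The groups overlapped, and siPTHrP was higher in 2 experiments. The log2 fold change was 0.34 (SE 0.22, limma adjusted p = 0.524), and it was 0.10 without experiment 3, which alone showed 1.75-fold. On 201365_at it was -0.059 (SE 0.23), with 0.740-fold, 1.24-fold and 0.965-fold by experiment. Across the 6 arrays the 2 probe sets had a Pearson r of -0.012.

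AZIN1, the antizyme inhibitor, gave 0.024 (SE 0.20, 95% interval -0.43 to 0.48) on 212461_at and -0.0027 (SE 0.26, 95% interval -0.59 to 0.58) on 201772_at. On the former siLuc arrays had 4210, 3808 and 2481 and siPTHrP arrays 4002, 4310 and 2425, so that experiment 3 was low in both groups. On the latter, experiment 3 stood at 0.634-fold and the other 2 at 1.34-fold and 1.17-fold. The third probe set, 213747_at, was too dim for the intensity filter. It had 110.4, 99 and 688 on siLuc arrays and 386, 715 and 823 on siPTHrP arrays, higher within each experiment and overlapping between groups.

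SMOX, the spermine oxidase, was dim and its experiments disagreed. On 210357_s_at, at the 57.6th percentile of mean signal, siLuc arrays gave 334.8, 334 and 1452 and siPTHrP arrays 1050, 962 and 1263. The siLuc array of experiment 3 was the highest of all 6, while the other 2 were the lowest. The log2 fold change was 0.96 (SE 0.50, 95% interval -0.16 to 2.09, limma adjusted p = 0.454), with 3.04-fold, 2.79-fold and 0.871-fold by experiment. It was 2.91-fold without experiment 3 and 1.56-fold without experiment 1. The other probe set, 217074_at, did not pass the filter and stood at 0.229-fold, 0.973-fold and 0.831-fold. Signals there reached down to 83, so no direction is read from it.

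**Figure D2:**
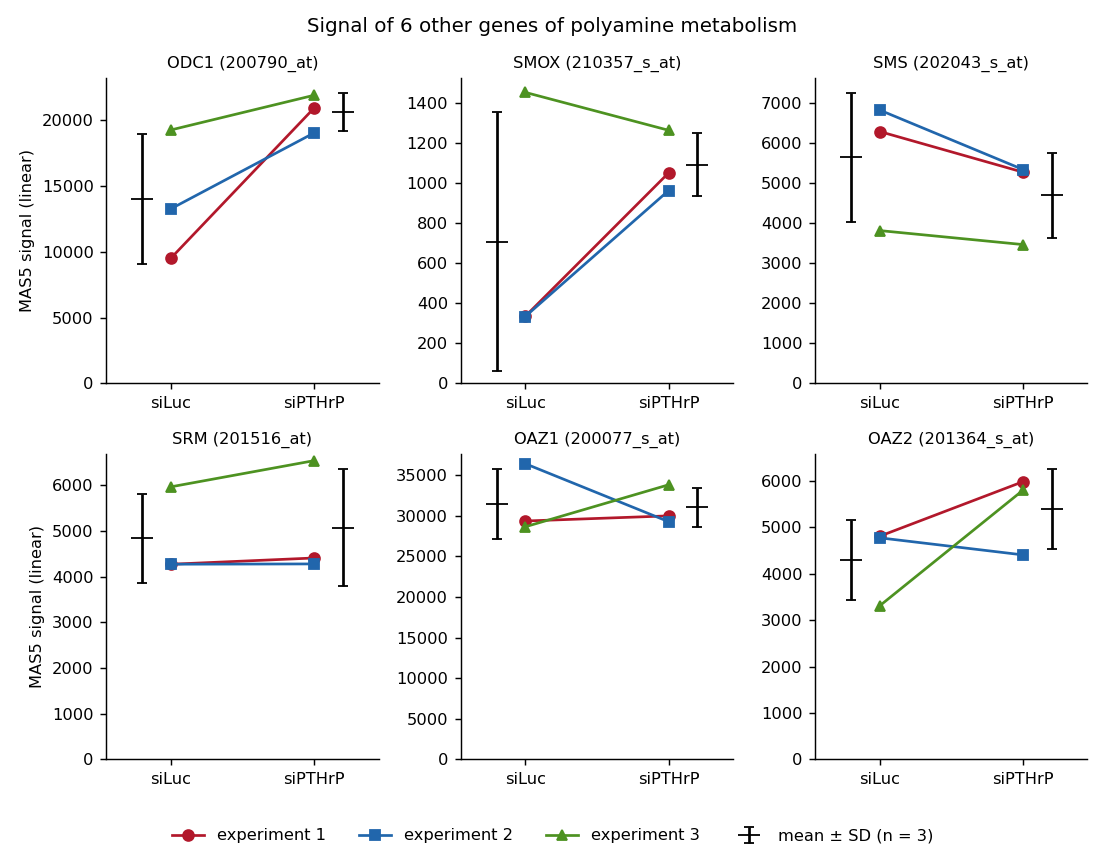
MAS5 signal (linear axis from 0) of ODC1, SMOX, SMS, SRM, OAZ1 and OAZ2, each on its brightest probe set; lines join the arrays of 1 experiment, and black bars give the group mean ± SD (n = 3). ODC1 runs upward and SMS downward in all 3 experiments, and SMOX runs upward in experiments 1 and 2 but not in experiment 3.

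Of the 17 probe sets 15 passed the intensity filter and 2, of SMOX and AZIN1, did not. With each gene at its brightest probe set, 7 of 9 genes were above 0 and 2 below, with a median log2 fold change of 0.060. Over all 13329 tested probe sets 52.5% were above 0 and the median was 0.030. Leaving SAT1 aside, 12 probe sets of the 8 other genes were tested. None passed (limma adjusted p from 0.360 to 0.997), and 1, that of ODC1, had an unadjusted p under 0.05. In these 12 the groups overlapped throughout. Of the 12, 2 were higher in 3 of 3 experiments (ODC1 and SRM), where 19.1% of all tested probe sets were, and 1 was lower (SMS), where 19.0% were. Groups that did not overlap, with siPTHrP higher, occurred in 8.94% of all tested probe sets and here in 2, both of SAT1. Since SAT1 was chosen on this contrast, nothing is read from that count.

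**Figure D3:**
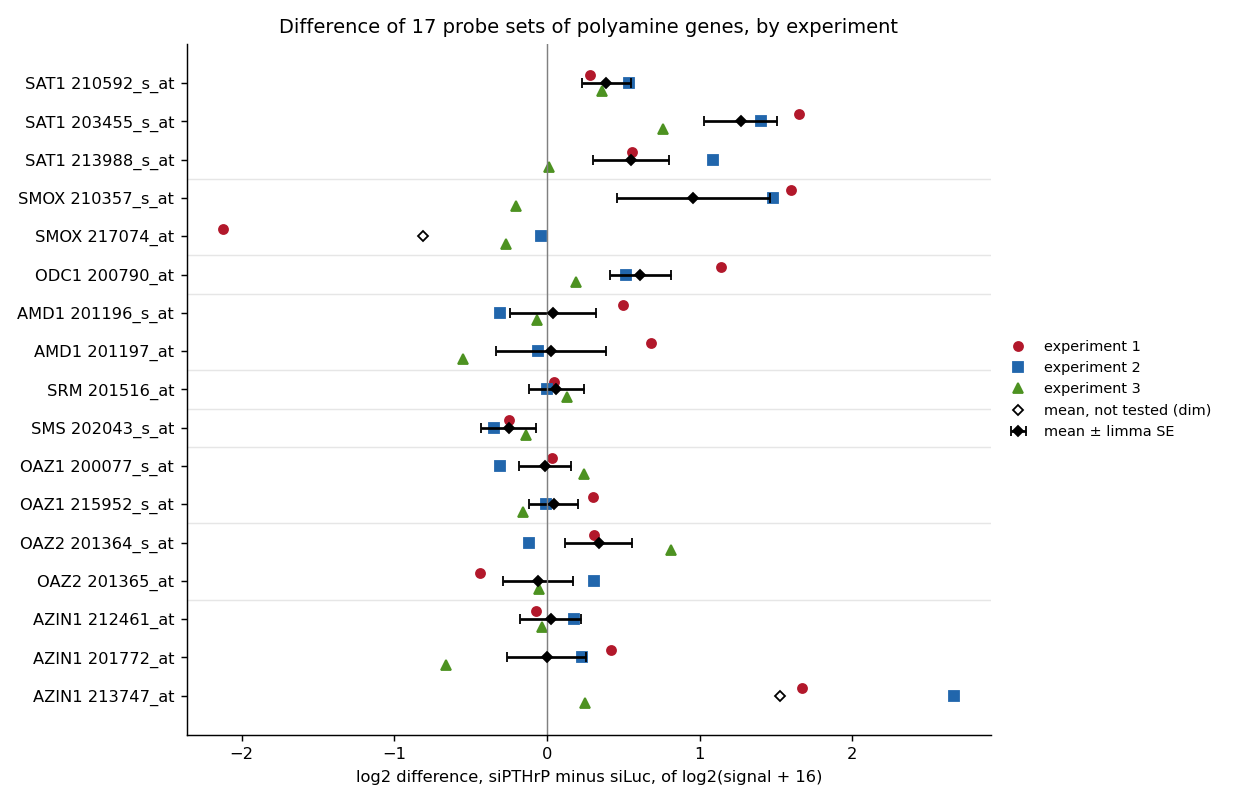
Log2 difference (siPTHrP minus siLuc, of log2(signal + 16)) of all 17 probe sets; coloured symbols are the 3 experiments, filled diamonds the mean ± limma SE of tested probe sets and open diamonds the mean of the 2 that were too dim. All 3 points lie above 0 for the 3 SAT1 probe sets, ODC1, SRM and AZIN1 213747_at, and below 0 for SMS and SMOX 217074_at.

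**Figure D4:**
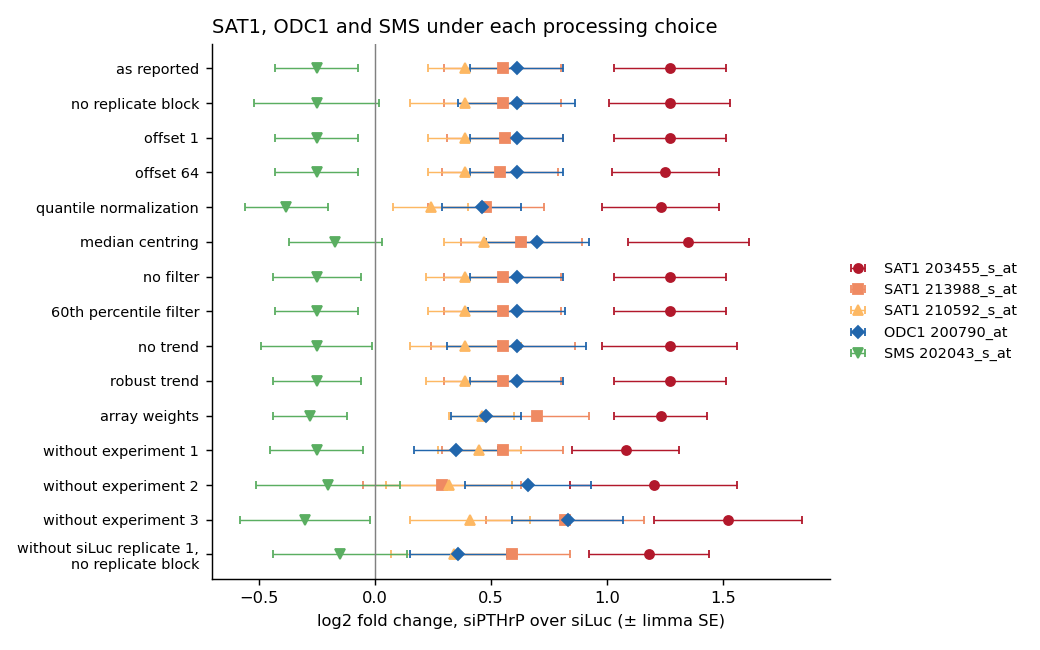
Log2 fold change (± limma SE) of the 3 SAT1 probe sets, ODC1 and SMS under the reported processing and 14 alternatives (vertical axis). SAT1 and ODC1 stay above 0 and SMS below 0 in all of them. Many of the alternatives could not have turned a sign. Changing the block, filter or trend leaves the log2 fold change as it was. Leaving out 1 experiment cannot turn a sign that all 3 share. SAT1 203455_s_at ranges from 1.08 to 1.52 and ODC1 from 0.35 to 0.83.

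Neighbouring genes of the pathway were taken from lists, each gene at its brightest probe set, and none of them passed over all probe sets (limma, 0 in every list). Of the other catabolic enzymes and antizyme genes, 2 of 5 listed were tested. Both were lower, but AOC1 passed the intensity filter only through its siLuc arrays. PAOX, the oxidase that acts on the acetylated products of SAT1, had 2369, 826 and 1297 on siLuc arrays and 665, 535 and 230 on siPTHrP arrays, with no overlap, as for 9.69% of all tested probe sets in this direction. Its log2 fold change was -1.61 (SE 0.49, limma adjusted p = 0.342), opposite in sign to SAT1, and -1.51 without experiment 1. AOC1, the diamine oxidase, stood at 0.735-fold (SE 0.63 on the log2 scale), with 339 and 340 as its signals in experiment 3. Its siPTHrP signals (357, 368 and 339) were below the filter's signal of about 376. Its log2 fold change was -0.44, and -0.21 without experiment 1, so no direction is read from it.

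Genes of hypusine formation, the modification of EIF5A that uses spermidine, were below 0 in 3 of 4, and in 2 of 4 without experiment 3. EIF5A itself had 15432, 8667 and 8897 on siLuc arrays and 4127, 4767 and 5916 on siPTHrP arrays of 201122_x_at. The groups did not overlap, and the log2 fold change was -1.12 (SE 0.25, limma adjusted p = 0.321), with -1.90, -0.86 and -0.59 in experiments 1, 2 and 3 and -0.72 without experiment 1. Its probe set 213753_x_at gave -1.36 (SE 0.35), but 201123_s_at gave 0.13 (SE 0.20), so the probe sets did not share a direction. EIF5A2, counted above among those below 0, stood at 0.626-fold (SE 0.60 on the log2 scale). It passed the intensity filter only through its siLuc signals (1023, 451 and 385, against 468, 357 and 248 with siPTHrP). Without experiment 1 it did not pass, so no direction is read from it. DHPS, which starts the modification, stood at 1.17-fold on its brightest probe set and at 1.17-fold and 1.18-fold on the other 2.

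Ornithine and arginine supply had 8 of 9 tested genes above 0, with a median log2 fold change of 0.26. OAT, which interconverts ornithine and glutamate semialdehyde, was higher in all 3 experiments at 1.17-fold, and PYCR1, of proline synthesis, at 1.07-fold. PYCR1 was nearly equal in experiment 3 (4119 on the siLuc and 4125 on the siPTHrP array) and stood at 1.02-fold without experiment 1. The gene below 0 with all experiments was ARG2, the mitochondrial arginase that makes ornithine. It stood at 0.676-fold (log2 fold change -0.56, SE 0.36), with 2104, 1148 and 1284 against 871, 1052 and 1032. Experiment 1 differed most, and without it the log2 fold change was -0.22. Its second probe set gave 0.773-fold. The methionine cycle and methylthioadenosine salvage had 7 of 10 above 0 and a median of 0.070, and 6 above 0 without experiment 1. APIP, a salvage enzyme, was the only 1 with the same sign in 3 experiments, at 1.35-fold (SE 0.24 on the log2 scale). Transporters of polyamines and basic amino acids had 6 of 7 above 0 with a median of 0.13, and 3 of them above 0 without experiment 1. CAV1, a caveolar protein known to act on polyamine uptake, stood at 1.19-fold on its brightest probe set and at 1.72-fold on another.

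Factors known to act on SAT1 transcription or to bind SAT1 had 6 of 8 tested genes above 0 and a median of 0.28. Without experiment 1, 4 of them were above 0. NFE2L2 (NRF2), a transcription factor of the oxidative stress response, had 3672, 4043 and 3015 on siLuc arrays and 8462, 7632 and 4182 on siPTHrP arrays. The groups did not overlap, and experiment 3 was again the least changed. Its log2 fold change was 0.86 (SE 0.21, limma adjusted p = 0.322), and 0.69 without experiment 1. Over the 6 arrays its log2 signal had a Pearson r of 0.939 with SAT1 203455_s_at and -0.013 with SAT1 210592_s_at, as a description. HIF1A stood at 1.39-fold and NFKB1 at 0.755-fold, with no sign change over the experiments. The genes NRF2 is known to activate had 7 of 11 tested above 0 and a median of 0.10, and 6 above 0 without experiment 1. SLC7A11, the cystine transporter, stood at 1.34-fold, and FTL, the ferritin light chain, at 0.659-fold (log2 fold change -0.60, SE 0.20, and -0.46 without experiment 1), with 0.735-fold on its other probe set. The other tested genes of this list had mixed signs over the experiments. NQO1 stood at 0.986-fold, TXNRD1 at 0.922-fold and GCLM at 0.830-fold. ME1 stood at 1.28-fold, TKT at 1.24-fold, PGD at 1.15-fold, GCLC at 1.07-fold and TALDO1 at 1.02-fold. HMOX1 stood at 1.29-fold, but at 0.707-fold without experiment 1.

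**Figure D5:**
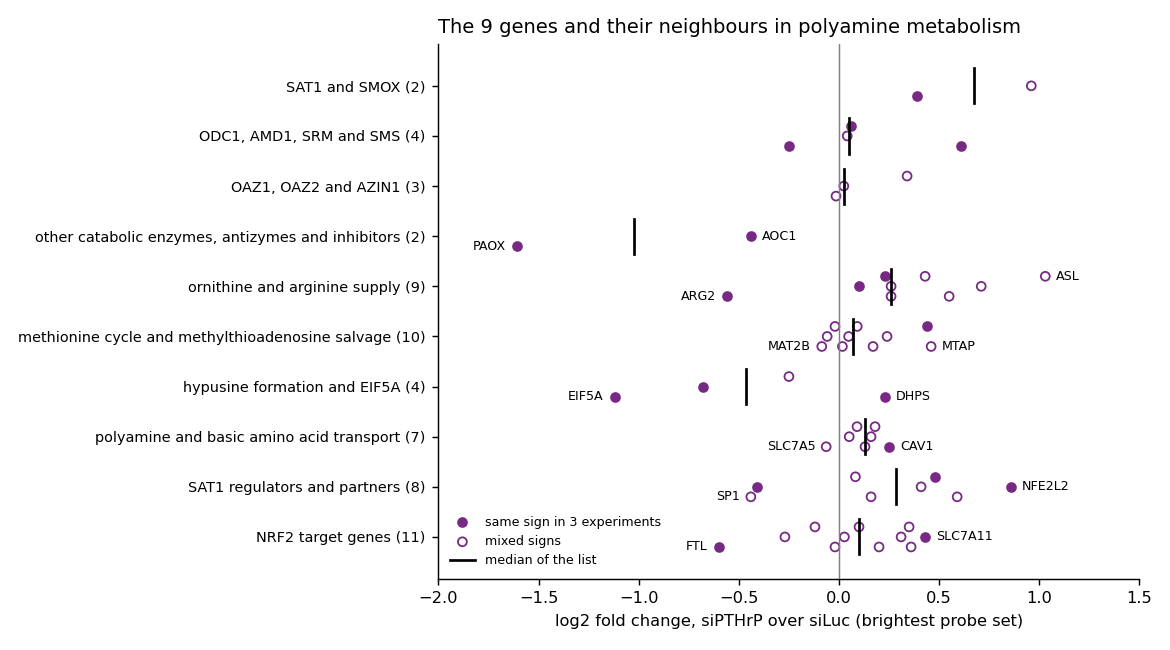
Log2 fold change (siPTHrP over siLuc) of each tested gene, at its brightest probe set, in the 3 groups of the 9 genes and in 7 neighbouring lists, with the number tested in parentheses; filled points have the same sign in 3 experiments, open points do not, and bars are medians. PAOX (-1.61) and EIF5A (-1.12) lie farthest below 0, and ASL (1.03, but -0.34 without experiment 1) and SMOX (0.96) farthest above.

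The probe sets of other genes whose log2 signals followed SAT1 203455_s_at most closely over the 6 arrays were those of NME3, SMARCC1, HNRNPA0, NUP88 and SHC1, with Pearson r from 0.986 to 1.000. NME3, the closest, was dim on siLuc arrays (164, 256 and 207), below the filter's signal of about 376. It passed only through its siPTHrP signals (1020, 1165 and 490), so nothing is read from its place. In all of these genes the siPTHrP arrays of experiments 1 and 2 were the highest. That of experiment 3 came between these and the siLuc arrays, as for NUP88 with 1227, 1453 and 1186 on siLuc and 3199, 3482 and 2377 on siPTHrP arrays. The probe sets closest to SAT1 210592_s_at were those of SGCB, LUC7L3, HDDC2, PIEZO1 and PQBP1, with r from 0.962 to 0.985, so none was on both lists. Among the 9 genes, SMS ran most against 210592_s_at (r = -0.964), with both arrays of experiment 3 low where SAT1 had both high. SMOX on 210357_s_at had r of 0.872 with it and SRM 0.858. These coefficients rest on 6 arrays of the same groups and experiments, and the closest were picked out of all tested probe sets.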

How the data were processed

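RNA of 3 siPTHrP and 3 siLuc samples was hybridised to Affymetrix human U133 arrays of type A, 1 array each. The deposited values are linear signal intensities made with MAS5, per the submitters' processing notes, which name no settings. Groups came from titles and descriptions. One siLuc sample has no number and was assigned to experiment 1 because the other numbers were taken. The sample titled siLuc 3 has number 2 in its description. All values by experiment rest on this assignment, and no other pairing was fitted. The design text pairs RNAs by experiment, so the experiment was a block. Deviations from group means had correlations of -0.0124, 0.157 and 0.157 for same-experiment pairs. Pairs of different experiments gave -0.206 to 0.132. With siLuc 2 and 3 exchanged the values were -0.206 (siLuc 2 with siPTHrP 3) and -0.113 (siLuc 3 with siPTHrP 2). Nothing states further replication within an experiment.

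R 4.3.3 and limma 3.58.1 (lmFit, eBayes with intensity trend) were run on log2(signal + 16). After 68 control probe sets were removed, probe sets with a mean at or above the 40th percentile (a signal of about 376) were kept, 13329 in all. P-values are two-sided with Benjamini-Hochberg adjustment. The offset shrinks folds of dim probe sets, and MAS5 makes low signals noisy. In 5 simulated runs, each with 100 changes of either size, the fit recovered 15.6% of log2 changes of 1 and 60% of log2 changes of 2. False calls averaged 6.8 per run. A difference that did not pass is therefore not shown to be absent.

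Probe sets were named where the annotation gave 1 gene (19071), and 19059 were updated to RefSeq names. Genes named from neighbouring lists were those with the same sign in 3 experiments, up to 4 per list by size. Others were added after their values were seen (ASL and the NRF2 target genes with mixed signs). Those closest to SAT1 were the 5 with the highest r. Some listed genes were not analysed here. Members and lists were chosen with earlier results of these data known. Alternatives are listed in the closing section.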

Additional observations from a re-analysis of the deposited data

How the results depend on the processing

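The count of 0 probe sets with an adjusted p under 0.05 held with no replicate block (0), with median centring or quantile normalization, with an offset of 1 or 64, without the intensity filter or with 1 at the 60th percentile, and without the trend or with a robust 1. It became 177 with array weights, and with replicates left out it ranged from 0 (siLuc array of experiment 1, no block) over 33 (experiment 1) and 47 (experiment 2) to 215 (experiment 3); the cause was not tested. Unadjusted p-values under 0.05 numbered 1618, with 1378 under no replicate block and 2513 with no filter, where more probe sets are tested. The log2 fold change of SAT1 203455_s_at stayed between 1.08 and 1.52, that of 210592_s_at between 0.24 (quantile normalization) and 0.47, and that of 213988_s_at between 0.29 (without experiment 2) and 0.82 (without experiment 3). ODC1 had a limma adjusted p of 0.0414 without experiment 3 and of 0.404 without experiment 1. Each of these fits held only 2 experiments, and nothing is read from the call. Removing the block changed no call of the 9 genes. The number of the 9 genes above 0 was 7, and 5 to 8 over the alternatives, with 5 under quantile normalization. Of 17 probe sets 9 kept their sign in every alternative that measured them. Changes of block, filter or trend alone cannot turn a sign, so this count is a description.

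The other 8, all with log2 fold changes near 0 and none called, changed sign under some alternatives, and the cause was not tested. With quantile normalization SRM turned to -0.052, OAZ1 215952_s_at to -0.13 and AZIN1 212461_at to -0.059. With median centring OAZ1 200077_s_at turned to 0.066, OAZ2 201365_at to 0.023 and AZIN1 201772_at to 0.079. Array weights gave -0.15 and -0.13 on AMD1 201196_s_at and 201197_at, -0.023 on OAZ1 215952_s_at and 0.12 on OAZ2 201365_at. In an unblocked fit that dropped the first siLuc array, AMD1 201197_at stood at -0.053, SRM at -0.02, OAZ1 215952_s_at at -0.15 and OAZ2 201365_at at 0.13. Leaving out each experiment gave ranges of -0.19 to 0.22 and -0.3 to 0.31 for AMD1 (201196_s_at, 201197_at), -0.14 to 0.13 and -0.083 to 0.14 for OAZ1 (200077_s_at, 215952_s_at), -0.24 to 0.13 for OAZ2 201365_at, and -0.053 to 0.073 and -0.21 to 0.32 for AZIN1 (212461_at, 201772_at). Low signals, as for SMOX, limit what these arrays can show.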
